A study of Mus musculus with 6 samples.

Results

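Promoter FXR peaks are the FXR ChIP-seq peaks that the peak tables annotate as lying at a gene promoter (annotation "promoter-TSS", where TSS is the transcription start site). They were taken by that annotation alone and kept separate for the 2 tables, 1 per genotype. The WT list held 2292 promoter peaks among 20040 peaks, 11.4% (95% Wilson interval 11.004 to 11.9). The LKO list held 1406 among 12495, 11.3% (10.7 to 11.8). The share of promoter peaks was therefore alike in lists of very different length.

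FXR was precipitated from whole liver of C57BL/6 mice, male per the study. WT stands for Bcl6 fl/fl, animals with loxP-flanked Bcl6 alleles and no Cre, and LKO stands for Alb-cre, Bcl6 fl/fl, which carry the same floxed alleles plus a Cre driven by the albumin promoter. Albumin is made by hepatocytes, and the study describes the deletion as one in hepatocytes. Whether other liver cells of LKO kept Bcl6 was not measured here. Each genotype had 2 ChIP libraries and 1 input, which is chromatin sequenced without precipitation. Age was not given in the sources used here, and nothing in the labels says that the replicates are separate animals. Libraries held between 2883717 and 22637613 tags, and the shallowest was WT replicate 2. A WT promoter peak held a median of 45.9 estimated tags in WT replicate 1 and 10.2 in WT replicate 2, against 40.2 and 38.1 in the LKO libraries. In whole liver, binding in fewer cells and less binding per cell cannot be told apart.

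FXR (farnesoid X receptor, gene Nr1h4) is the nuclear receptor that senses bile acids in the liver. It binds DNA as a heterodimer with RXR, mostly at an inverted repeat of AGGTCA with a 1-base spacer, called IR1. Classical targets near their own start sites are Nr0b2, which encodes the corepressor SHP, and Abcb11, which encodes the canalicular bile salt export pump. BCL6 is a zinc finger repressor that represses many metabolic genes of the hepatocyte. Mammalian promoters fall into CpG-rich ones, typical of broadly expressed genes, and CpG-poor ones, typical of tissue-restricted genes.

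The sequences below show what a promoter FXR peak looked like. They were read from GRCm38.p6, whose coordinates are those of mm10, on the forward strand. The first set holds the IR1 matches of the 6 strongest promoter peaks that were found in both lists and carried a match with at most 1 mismatch, each with 20 bases on either side. Capitals mark the 13-base match. All 6 sites lay within 24 bp of the centre of their WT peak.
Fcna: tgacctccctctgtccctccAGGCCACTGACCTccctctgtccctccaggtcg
6430706D22Rik: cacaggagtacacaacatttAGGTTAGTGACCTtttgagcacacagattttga
Scyl2: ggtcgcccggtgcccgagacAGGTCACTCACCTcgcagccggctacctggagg
Abcb11: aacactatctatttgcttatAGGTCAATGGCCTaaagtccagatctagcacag
9930012K11Rik: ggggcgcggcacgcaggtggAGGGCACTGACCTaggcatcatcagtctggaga
Ndufb6: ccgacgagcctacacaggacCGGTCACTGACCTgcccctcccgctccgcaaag
The stretches lie at chr2:25628797-25628849 (Fcna, which encodes the lectin ficolin A), chr1:88269899-88269951 (6430706D22Rik), chr10:89686007-89686059 (Scyl2, a membrane traffic protein), chr2:69342647-69342699 (Abcb11), chr14:70159532-70159584 (9930012K11Rik) and chr4:40279342-40279394 (Ndufb6, a subunit of respiratory complex I).

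A perfect IR1 occurred in 2 of the 2292 WT promoter peaks, and in 0 of the 1406 LKO promoter peaks, which allows up to 0.272% by the Wilson interval. Both are printed here because of that count, and they were chosen after their values were seen.
4930474M22Rik: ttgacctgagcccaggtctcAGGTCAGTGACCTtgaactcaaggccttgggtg
Slco2b1: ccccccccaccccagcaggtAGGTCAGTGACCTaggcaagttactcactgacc
The first lies at chr17:14399129-14399181 upstream of the noncoding gene 4930474M22Rik, and the second at chr7:99696207-99696259 in the promoter of Slco2b1, which encodes an organic anion uptake transporter. Neither was a strong peak. Slco2b1 measured 3.78 and 3.53 on the log2 tag scale in WT replicates 1 and 2, with -0.55 in the WT input, and ranked 1994 among the 2292 WT promoter peaks. The peak of 4930474M22Rik measured 4.64 and 5.59 with -0.35 in input, ranked 885, and had no partner in the LKO list. The Slco2b1 peak did overlap an LKO peak. The LKO count of 0 therefore does not mean that both places lacked an LKO peak.

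The last set shows 3 whole WT peaks. In Wwc2 and C3 the capitals mark CG dinucleotides, and the pair was chosen because Wwc2 was the strongest CpG-rich promoter peak and C3 a strong CpG-poor one. In Nr0b2 the capitals mark the best IR1 match near the centre.
Wwc2: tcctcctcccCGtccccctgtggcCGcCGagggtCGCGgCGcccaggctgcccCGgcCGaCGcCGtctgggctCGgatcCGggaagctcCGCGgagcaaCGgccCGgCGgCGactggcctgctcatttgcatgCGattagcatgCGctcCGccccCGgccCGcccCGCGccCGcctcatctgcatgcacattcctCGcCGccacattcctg
C3: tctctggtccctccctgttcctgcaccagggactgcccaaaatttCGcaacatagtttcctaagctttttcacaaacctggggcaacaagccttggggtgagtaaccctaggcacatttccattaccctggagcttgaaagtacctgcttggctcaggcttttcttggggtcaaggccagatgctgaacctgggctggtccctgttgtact
Nr0b2: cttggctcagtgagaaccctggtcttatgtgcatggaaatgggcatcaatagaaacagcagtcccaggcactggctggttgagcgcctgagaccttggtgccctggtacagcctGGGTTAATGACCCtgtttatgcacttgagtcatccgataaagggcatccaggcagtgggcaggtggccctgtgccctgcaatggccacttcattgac
The Wwc2 peak (chr8:47990430-47990640, Hippo pathway scaffold) held 28 CG dinucleotides in 211 bases, and the C3 peak (chr17:57228132-57228342, the central complement component) held 1. The Nr0b2 peak (chr4:133552953-133553163) was centred at -318 bp from the start, and its best IR1 match had 3 mismatches, 1 more than the limit used below.

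As annotated, promoter peaks lay mostly at the start site and upstream of it. The median peak centre lay at -113 bp from the TSS in WT and at -133 bp in LKO, with negative values upstream. Centres from -100 to -1 bp made up 22.6% of WT promoter peaks and those from 0 to 99 bp another 17.6%, whereas 15.1% lay upstream of -500 bp. In LKO the same bins held 19.3%, 17.9% and 15.1%. Peaks listed at 100 bp or further downstream were few, 7.24% of WT and 6.05% of LKO. Because the annotation picks peaks by position, this upstream lean is at least partly set by it. No WT centre lay further upstream than -995 bp. Centres within 1000 bp of a TSS made up 16.7% of the WT list, against 11.4% annotated as promoter. In LKO the annotated transcript was the nearest transcript for 73.3% of promoter peaks, so a distance may refer to another start.

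**Figure D1:**
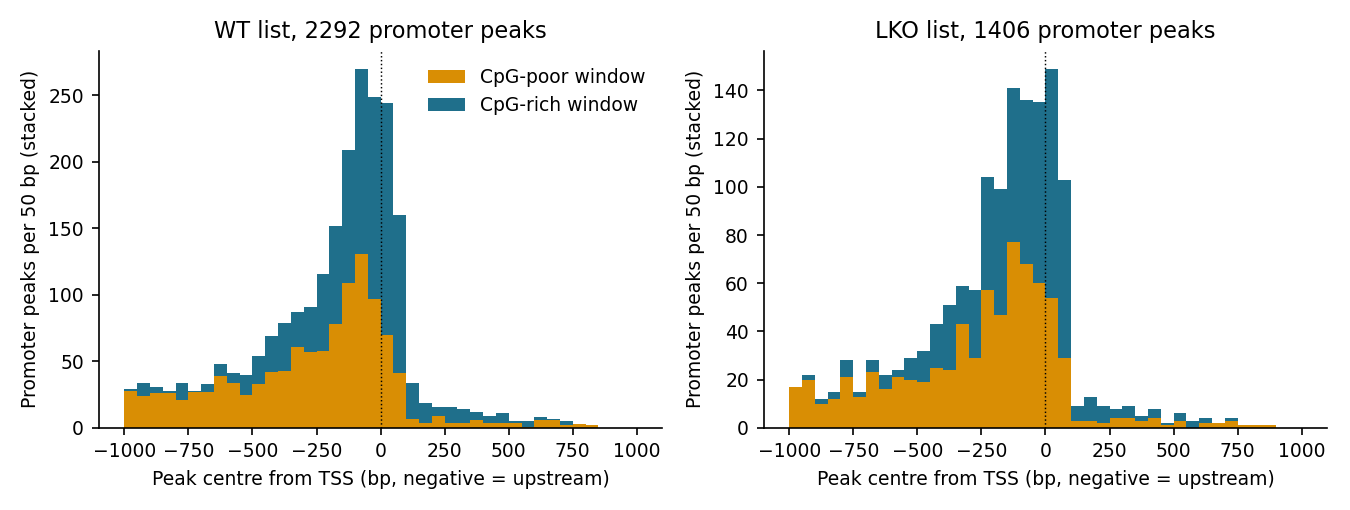
Number of promoter peaks (vertical axis, peaks per 50 bp, stacked) by distance of the peak centre from the TSS (horizontal axis, bp, negative upstream) in the WT list (left, 2292 peaks) and the LKO list (right, 1406 peaks). CpG-rich windows (blue) gather closer to the start, with medians of -56 bp in WT and -80 bp in LKO, than CpG-poor ones (orange), with medians of -194 and -199 bp.

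The detailed annotation could not tell CpG islands apart here. It reads promoter-TSS for every promoter peak, so that 0 of 2292 WT and 0 of 1406 LKO promoter peaks carry an island label. Sequence gave the class instead. A peak was called CpG-rich when the window reaching 100 bp to each side of its centre had at least 50% GC and at least 0.6 of the CpG expected from base composition. By this measure 49.3% of WT promoter peaks (47.2 to 51.3) and 47.2% of LKO promoter peaks (44.6 to 49.8) were CpG-rich, against 5.00% and 4.80% of peaks elsewhere. Among 17492 RefSeq protein-coding promoters, over the 200 bp before the start, 44.0% met the same limits. The WT share lay above that of RefSeq promoters (43.3 to 44.8), although the windows are placed differently, and the LKO interval overlapped it. Without peaks whose input exceeded the 95th percentile of the list, the WT share was 44.4% (42.2 to 46.6). The LKO share was then 43.6% (40.8 to 46.3), so neither lay above RefSeq promoters. The share was 47.1% (44.3 to 49.99) among WT promoter peaks shared with LKO and 51.5% (48.5 to 54.4) among those found in the WT list only.

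IR1 matches were scarcer at promoter peaks than at other peaks of the same list, yet well above promoters at large. With at most 2 mismatches within 100 bp of the centre, AGGTCANTGACCT was found in 6.41% of WT promoter peaks (5.48 to 7.49) and in 12.5% of other WT peaks (12.1 to 13.03). In LKO the shares were 8.39% (7.05 to 9.96) and 17.2% (16.5 to 17.9). Windows of the same length 2 kb from the WT promoter peaks held a match in 0.785%, and RefSeq promoters in 0.766%. Both strands were searched, and the motif shares its AGGTCA units with the DR1 and single AGGTCA motifs below.

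The share differed with the base composition of the promoter. CpG-rich WT promoter peaks carried IR1 in 4.07% (3.07 to 5.39), and CpG-poor ones in 8.68% (7.20 to 10.4). CpG-rich and CpG-poor RefSeq promoters held it in 0.415% and 1.04%. Within the CpG-poor class, other WT peaks still held more matches, 12.8% (12.3 to 13.3). Matches were more frequent among stronger peaks. In the strongest quartile of the whole WT list 10.9% of promoter peaks had IR1, and in the weakest 3.29%. In LKO these were 16.4% and 2.67%. Promoter peaks more than 500 bp upstream had IR1 in 9.25% in WT and 12.7% in LKO, while those centred from 0 to 99 bp had it in 3.71% and 5.16%. The few peaks listed at 100 bp or further downstream had 10.2% (6.49 to 15.8) and 14.1% (8.26 to 23.1). These intervals overlapped those of the peaks more than 500 bp upstream, 6.63 to 12.8 in WT and 8.90 to 17.9 in LKO.

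Motifs of general promoter factors differed in where they lay. The SP/KLF box GGGCGG lay in 42.4% of WT promoter peaks, 6.998% of other WT peaks and 41.0% of RefSeq promoters. The ETS motif CCGGAAG lay in 8.77%, 1.40% and 8.47%, and the NRF1 palindrome GCGCATGCGC (1 mismatch allowed) in 5.54%, 0.394% and 6.68%. These 3 sat mostly in CpG-rich windows, SP/KLF for example in 64.1% of CpG-rich and 21.3% of CpG-poor WT promoter peaks. The NF-Y motif CCAAT, in contrast, lay in 28.1% of WT promoter peaks, 27.1% of other WT peaks and 32.1% of RefSeq promoters.

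Liver and nuclear receptor motifs showed the opposite order. The single unit AGGTCA lay in 26.8% of WT promoter peaks, 42.1% of other peaks and 10.2% of RefSeq promoters. The direct repeat DR1 (AGGTCANAGGTCA, 2 mismatches allowed), bound by HNF4A and by RXR dimers, lay in 7.94%, 13.4% and 2.20%. The C/EBP motif TTGCNNAA lay in 9.51%, 17.4% and 7.09%, and the FOXA motif TGTTTAC in 4.45%, 7.004% and 2.02%. In CpG-poor promoter peaks FOXA reached 7.14%, with 1.68% in CpG-rich ones, and other CpG-poor WT peaks held it in 7.23%. Within CpG-poor windows, promoter peaks still held fewer matches than other peaks for AGGTCA (33.9% against 43.0%), DR1 (10.8% against 13.9%) and C/EBP (13.2% against 18.0%). Within CpG-rich windows DR1 lay in 4.96% of promoter and 4.62% of other WT peaks. The BCL6 motif TTCCNAGAA lay in 1.66% of WT promoter peaks (1.21 to 2.27), 1.64% of other WT peaks and 1.58% of RefSeq promoters, and these shares did not differ beyond their intervals. The TATA box TATAAA was rarer at WT promoter peaks, 3.88%, than at other WT peaks, 6.64%, and in RefSeq promoters, 10.2%, although the windows are centred differently. Motif shares across peaks are descriptions without a test.

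**Figure D2:**
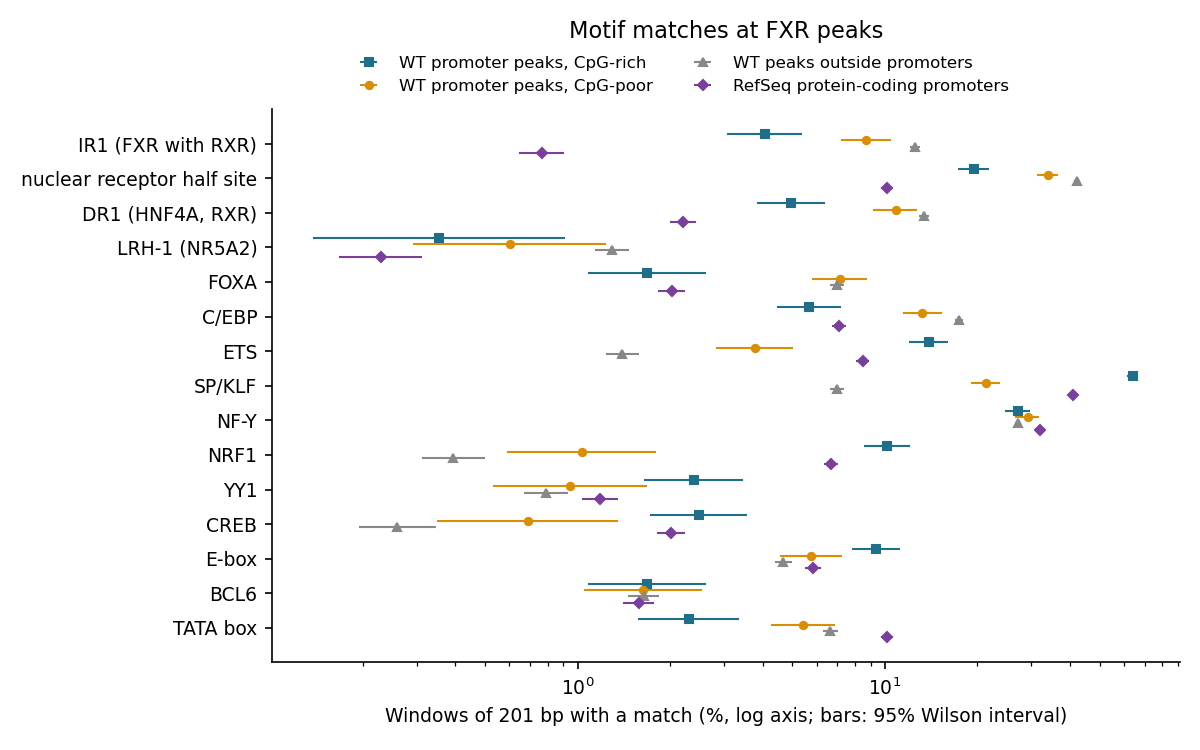
Share of windows holding each motif shown (horizontal log axis, percent, bars are 95% Wilson intervals) in CpG-rich and CpG-poor WT promoter peaks, WT peaks outside promoters and RefSeq protein-coding promoters. Windows reach 100 bp to each side of the peak centre, and for RefSeq promoters they cover the 200 bp before the start. IR1, AGGTCA and DR1 are more common in all 3 peak sets than in RefSeq promoters, whereas SP/KLF, ETS and NRF1 matches lie mainly in CpG-rich promoter peaks and RefSeq promoters.

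Promoter peaks were slightly stronger than the other peaks of their list. Levels are the deposited log2 tag values of each library. The median promoter peak measured 4.54 in WT replicate 1 and 5.09 in WT replicate 2, and the median of other peaks 4.32 and 4.89. The difference of medians was 0.22 and 0.20 in these libraries, 0.21 ± 0.016 (SD, n = 2). The LKO libraries gave 0.15 and 0.18, 0.17 ± 0.020 (SD, n = 2). Input medians were under 1 estimated tag in these groups, and the input values of peaks with hardly any input tags were higher where the ChIP level was higher, for example -0.55 at the weak Slco2b1 peak and 0.16 at C3. Small input differences between groups of unlike ChIP level are therefore partly built into the values and are not read here.

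High input was more frequent at CpG-rich peaks, at promoters and elsewhere. An input value above the 95th percentile of the list was found at 12.9% of WT promoter peaks and 3.98% of other WT peaks, and at 11.02% and 4.24% in LKO. CpG-rich promoter peaks reached 21.5% in WT and 17.9% in LKO, against 4.56% and 4.85% of CpG-poor ones. CpG-rich exceeded CpG-poor promoter peaks by 0.27 and 0.19 in the WT ChIP libraries and by 0.23 and 0.33 in the LKO ones. At shared peaks, with each library centred on its median over them, CpG-rich promoter peaks had medians of 0.37 in WT and 0.35 in LKO. CpG-poor ones had 0.020 and -0.051. Without peaks of high input, these medians were 0.027 and 0.017 for CpG-rich and -0.11 and -0.14 for CpG-poor promoter peaks. The part of input in the level of CpG-rich promoter peaks was not tested. Without peaks of high input, promoter peaks still exceeded other peaks, by 0.10 in both lists. Promoter peaks with an IR1 match exceeded those without by 0.80 and 0.67 in WT replicates 1 and 2 and by 1.01 and 0.88 in LKO.

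**Figure D3:**
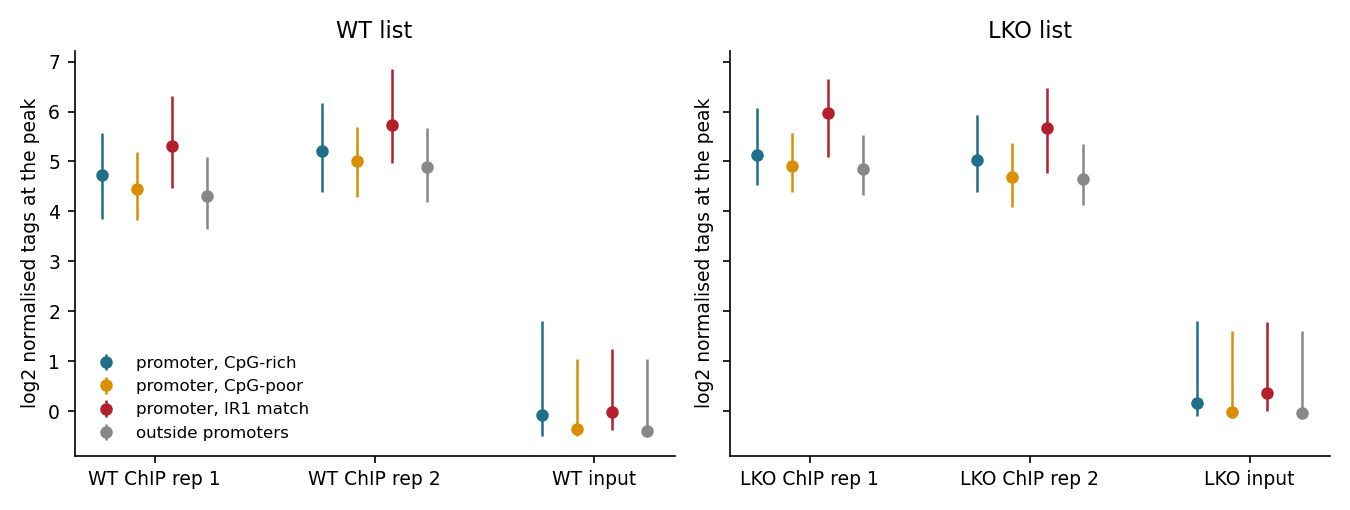
Median (points) and interquartile range (lines) of the log2 normalised tags at peaks (vertical axis) in each ChIP and input library of the WT list (left) and the LKO list (right), for CpG-rich, CpG-poor and IR1-bearing promoter peaks and for peaks outside promoters. Promoter peaks with an IR1 match have the highest ChIP median in all 4 ChIP libraries, and the classes overlap widely.

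By WT mean the 5 strongest shared ones belonged to Fcna, Wwc2, Usp2 (a deubiquitinase under clock control), Mcmbp (an MCM-binding replication protein) and Cks2 (a cyclin-dependent kinase subunit). Fcna measured 8.93 and 10.30 in WT with 1.36 in input, and 8.69 and 8.65 in LKO with 1.88 in input. Wwc2 measured 8.57 and 9.53 in WT with 2.39 in input, and 8.94 and 8.95 in LKO. The other 3 lay between 8.31 and 9.50 in the WT ChIP libraries, and Usp2 had the highest input of the 5, 4.56. All but Fcna were CpG-rich, and Fcna alone among the 5 had IR1 within 2 mismatches. C3 was the 13th strongest WT promoter peak, CpG-poor, with 8.24 and 8.93 in WT, 0.16 in input, and 8.54 in both LKO libraries.

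Genes of bile acid transport were often bound at the promoter. Of 15 listed transport genes 8 had a promoter peak in WT and 5 in LKO, and of 13 synthesis and conjugation genes 5 and 4, against 2031 of 21900 protein-coding genes (9.27%) in WT and 1274 (5.82%) in LKO. Nr0b2 measured 7.40 and 8.27 in WT with 0.05 in input, and 7.58 and 7.40 in LKO. Abcb11 measured 7.27 and 7.74 in WT with 0.01 in input, and 7.05 and 7.30 in LKO. Its peak is centred 60 bp upstream of the start. Slc51b, which encodes the beta subunit of the basolateral bile acid efflux transporter OST, measured 7.50 and 8.14 in WT with 1.23 in input, and 7.94 and 7.74 in LKO. These 3 ranked 57, 94 and 61 among the 2292 WT promoter peaks.

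Atp8b1, the aminophospholipid flippase of the canalicular membrane, was CpG-rich and measured 7.10 and 7.34 in WT and 7.53 and 7.42 in LKO. The LKO input was 3.03 there and the WT input -0.04. Slco1b2, the hepatic organic anion uptake transporter, had IR1 with 1 mismatch and measured 5.36 and 6.08 in WT and 5.57 and 5.60 in LKO, again with a higher LKO input, 3.36 against -0.26. Abcg8, of the biliary sterol exporter, measured 5.31 and 5.70 in WT and 5.12 and 4.20 in LKO. Among synthesis genes with a peak in both lists, Cyp27a1 (sterol 27-hydroxylase) measured 6.03 and 5.45 in WT, Acox2 4.94 and 5.85, Amacr 5.00 and 5.89, and Hsd17b4 4.76 and 5.55. The last 3 act in peroxisomal shortening of the bile acid side chain.

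Of the bile acid and feedback genes, 5 had a promoter peak in the WT list only, while 4 synthesis, 5 transport and 1 feedback gene had one in both. Over all genes with a WT promoter peak, 48.7% were WT-only, so these genes were not set apart by that count. Cyp7a1, the rate-limiting enzyme of bile acid synthesis, measured 4.23 and 5.69 in WT with 1.05 in input. Slc10a1, the sodium taurocholate uptake transporter, measured 4.31 and 4.37, and Nr5a2, which encodes LRH-1, 4.34 and 4.37. Abcc2 measured 3.23 and 4.29 and Abcc3 4.59 and 5.68, both multidrug resistance-associated efflux pumps. These 5 ranked between 875 and 1917 in the WT list, and none had IR1 within 2 mismatches. Absence from the LKO list says only that no peak passed the calling there, since the tables give no LKO value at these places.

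Acute-phase and plasma protein genes had the highest share of all lists in both genotypes, although the intervals overlapped those of other lists. In WT the share was 60.7% (42.4 to 76.4), beside 57.9% (42.2 to 72.1) for coagulation and complement genes. In LKO it was 50% (32.6 to 67.4), beside 40% (21.9 to 61.3) for glucose and insulin genes. Of 28 such genes 17 had a promoter peak in WT and 14 in LKO, and all 14 were also WT genes. Itih3, an inter-alpha-trypsin inhibitor chain, measured 6.55 and 7.24 in WT with -0.08 in input, and Rbp4, the retinol carrier, 7.27 and 8.19 with an input of 4.02. Of 38 coagulation and complement genes 22 and 14 were bound, with C3 the strongest, followed by Mbl1, a mannose-binding lectin, at 6.53 and 6.87. Of 26 apolipoprotein and lipoprotein genes 13 and 10 were bound, led by Apoa5, an activator of lipoprotein lipase, at 6.95 and 8.004, and Angptl8, which takes part in inhibiting that enzyme, at 6.30 and 6.51.

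Of 29 cholesterol and fatty acid synthesis genes 12 were bound in WT and 8 in LKO, beside 9.27% and 5.82% of all protein-coding genes. Fasn, fatty acid synthase, measured 7.48 and 8.18 in WT and 8.04 and 7.57 in LKO, and Srebf2, the sterol-sensing transcription factor, 6.01 and 6.62 in WT and 5.86 and 5.38 in LKO. Of 20 fatty acid oxidation genes 9 and 5 were bound. Their strongest WT promoter peak lay at Ppara, the fasting nuclear receptor, at 6.36 and 6.90, but its input was 3.19 and it had no LKO partner. Pdk4, which inhibits pyruvate dehydrogenase, measured 5.19 and 5.52. Of 20 glucose and insulin genes 10 and 8 were bound, Pcx (pyruvate carboxylase) at 6.62 and 7.13 and Igfbp1 (an IGF-binding protein under insulin control) at 6.30 and 6.90 in WT, with Igfbp1 lower in LKO at 5.35 and 5.80. Of 25 urea and amino acid genes 8 and 5 were bound, led by Gpt, alanine aminotransferase, at 6.45 and 6.62, and by the WT-only Bhmt, betaine-homocysteine methyltransferase, at 5.45 and 6.40.

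Regulator lists were bound in WT and LKO as follows, beside 9.27% and 5.82% of all protein-coding genes. Hepatocyte transcription factors counted 8 and 5 of 20, with Nr2f6 at 5.98 and 6.81 in WT and 5.16 and 5.11 in LKO. Clock genes counted 7 and 3 of 19, with Per3, a period repressor, at 7.17 and 7.79 in WT. Drug and steroid metabolism counted 12 and 8 of 30, with Aox1 at 5.98 and 6.30 and Por, the reductase that serves cytochromes P450, at 5.32 and 5.35. Unfolded protein and stress genes counted 9 and 7 of 27, led by Nfe2l2, the antioxidant regulator NRF2, at 6.62 and 7.12. Autophagy and lysosome genes counted 4 and 2 of 27, led by Atg5 at 6.88 and 7.06 with an input of 3.74, and Ctsl, WT-only, at 5.73 and 6.36. The FXR feedback list counted 2 and 1 of 10. Its Wilson intervals held the share of all genes, 5.67 to 51.0% in WT and 1.79 to 40.4% in LKO. So did those of autophagy and lysosome genes, 5.92 to 32.5% and 2.06 to 23.4%, and that of clock genes in LKO, 5.52 to 37.6%. These lists were not set apart from all genes there.

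Genes of general cell machinery had lower shares than the plasma protein lists. Respiratory chain genes counted 20 and 9 of 76, with Ndufb6 at 6.98 and 7.12 and Sdha at 6.31 and 6.95 in WT. Mitochondrial ribosomal genes counted 12 and 6 of 78, led by Mrpl34 at 5.75 and 5.80 and Mrpl22 at 5.45 and 6.50. Proteasome genes counted 6 and 3 of 39, led by Psmb3 at 6.52 and 7.18. Splicing factors counted 5 and 3 of 52 and cytosolic ribosomal proteins 7 and 1 of 84, near the share of all genes in WT. The intervals of mitochondrial ribosomal and proteasome genes also held the share of all genes, 9.27% in WT and 5.82% in LKO. Markers of other liver cells were too few to set apart from the share of all genes. Of 10 genes each, Kupffer cell markers had 1 promoter peak in both lists (Fcna), cholangiocyte markers 1 in WT (Sox9, 4.37 and 4.21) and none in LKO, and endothelial, stellate and lymphocyte markers none, which allows up to 27.8% by the Wilson interval. The lists were compared by their shares only.

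Most bound genes had a single promoter peak. The WT peaks belonged to 2206 genes, of which 2121 had 1 peak and 84 had 2. Only Sqor, the mitochondrial sulfide oxidoreductase, had 3, at chr2:122765200-122765410, chr2:122771139-122771349 and chr2:122781650-122781860. They measured 6.67, 3.54 and 7.09 in WT replicate 1 and 7.18, 4.31 and 7.71 in WT replicate 2, and the weak middle one had no LKO partner. In LKO 1358 of 1382 genes had 1 peak and 24 had 2. Another FXR peak outside the promoter was assigned to 52.8% of the WT and 46.2% of the LKO genes.

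The genotypes shared the stronger promoter peaks. Of the WT promoter peaks 1159 overlapped an LKO peak by at least 1 bp, 50.6% (48.5 to 52.6), and of the LKO promoter peaks 1149 overlapped a WT peak, 81.7% (79.6 to 83.7). Other peaks overlapped at 49.4% and 79.1%. Both annotations read promoter for 1138 pairs. By gene, 1132 genes had a promoter peak in both lists, 51.3% of the WT and 81.9% of the LKO genes. Shared WT promoter peaks exceeded WT-only ones by 1.32 and 1.16 in the WT ChIP libraries, and shared LKO promoter peaks exceeded LKO-only ones by 0.81 and 0.80.

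Overlap was larger among stronger peaks, for promoter peaks as for other peaks. From the weakest to the strongest quartile of the WT list it was 8.62%, 33.5%, 56.8% and 85.7% for promoter peaks, and 14.5%, 32.99%, 61.3% and 91.1% for other peaks. For LKO promoter peaks it was 55.7%, 77.7%, 88.0% and 97.1%. The number of shared promoter peaks is nearly equal in both lists, so the larger share falls to the shorter list. With at least 10 estimated tags required in both replicates, a limit chosen after seeing the data, 1179 WT and 1400 LKO promoter peaks were left, and the shared ones were 854, 72.4%, in WT and 846, 60.4%, in LKO. That limit shortened the WT list to 8864 peaks and left 12445 in LKO.

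**Figure D4:**
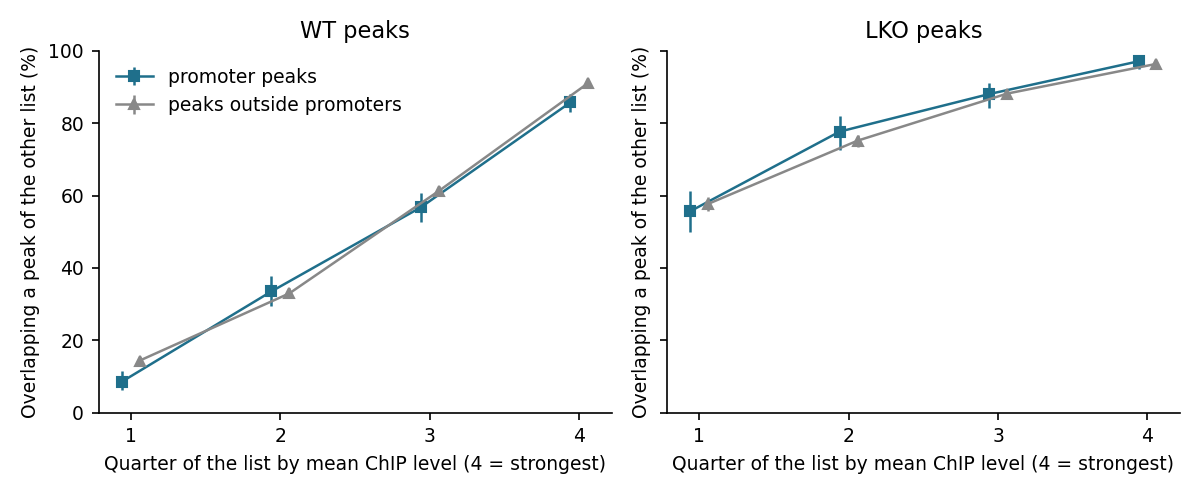
Share of peaks that overlap a peak of the other genotype's list (vertical axis, percent, bars are 95% Wilson intervals) by quartile of mean ChIP level within the list (horizontal axis, 4 is the strongest) for WT peaks (left) and LKO peaks (right). Promoter peaks and peaks outside promoters climb together, from 8.62% to 85.7% for WT promoter peaks and from 55.7% to 97.1% for LKO promoter peaks.

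The strongest promoter peaks found in a single list were CpG-rich and had high input. In WT they belonged to Slc25a39 (a mitochondrial glutathione carrier), Hsdl1, Kmt2b (a histone H3 lysine 4 methyltransferase), Ubl3 and Mast4. Slc25a39 measured 7.78 and 8.61 with 4.99 in input, and the inputs of the other 4 lay between 4.02 and 4.45. In LKO they belonged to Tiparp (an ADP-ribosyltransferase induced through the aryl hydrocarbon receptor), Nr2c2 (the orphan nuclear receptor TR4), Smco4, Bbof1 and Slc44a1. Tiparp measured 7.09 and 6.58 with 3.69 in input, and the inputs of the other 4 lay between 2.995 and 4.77. Of these 10 peaks 2 had IR1 within 2 mismatches, Slc44a1 with 1 mismatch and Ubl3 with 2.

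At shared promoter peaks, levels were set side by side after centring each library on its median over all 9918 shared peaks, because the tables were normalized separately. The median LKO minus WT difference over the 1159 shared promoter peaks was 0.0057 on the log2 scale, beside 0.026 over all shared peaks. Both LKO libraries lay above both WT libraries at 289 promoter peaks, 24.9%, against 29.8% of all shared peaks. Both lay below at 254, 21.9%, against 25.2% of all shared peaks. With every library scaled to the same sum the counts were 270 above, 23.3%, and 295 below, 25.5%, against 27.9% and 27.6% of all shared peaks. Promoter peaks thus stood apart in neither direction more often than shared peaks in general.

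Promoter peaks with an IR1 match were more often above in LKO. Over the 108 shared ones the median difference was 0.25, and 43.5% had both LKO libraries above both WT libraries while 11.1% had both below. Over the 1051 without a match the median was -0.018, with 23.0% above and 23.0% below. For each pairing of 1 WT and 1 LKO library the median of the IR1 group lay between 0.19 and 0.26, and that of the rest between -0.069 and 0.040. The pattern was not particular to promoters: other shared peaks with IR1 had a median of 0.22 with 44.7% above and 17.6% below, and those without had -0.0075. IR1 peaks were stronger than the rest. Within the strongest WT quartile the IR1 promoter peaks had a median of 0.20 (n = 73) and the others -0.094 (n = 539). Without high-input peaks the medians were 0.26 (n = 80) and -0.014 (n = 830). The part of peak strength and of depth in this difference was not tested. On the deposited scale without centring all shared peaks had a median of -0.30, and the IR1 promoter peaks -0.082. Such a shift is the same for every peak and leaves the difference between IR1 peaks and the rest at 0.27.

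Single shared promoter peaks with separated libraries ranged widely. The 3 highest in LKO were Cer1, which encodes a secreted BMP antagonist, Tmem64, and Atp6v0a4, a proton pump subunit. Cer1 had 3.16 and 4.28 in WT and 5.34 and 4.88 in LKO, a centred difference of 1.71, and Tmem64 and Atp6v0a4 differed by 1.70 and 1.62. All 3 were weak WT peaks, ranked 1307 to 1941. Among the lowest in LKO were Rgs16, a regulator of G protein signalling, and Zfhx2. Rgs16 had 5.35 and 5.87 in WT and 2.81 and 4.40 in LKO, a centred difference of -1.67. Zfhx2 differed by -1.24, and its LKO libraries agreed closely at 4.76 and 4.63.

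Among bile acid genes the centred values at Nr0b2 reached 2.56 ± 0.25 in WT against 2.55 ± 0.01 in LKO (SD, n = 2), and those of Abcb11 were 2.23 ± 0.04 and 2.23 ± 0.32, so that neither genotype stood above the other. Both LKO libraries lay above both WT libraries at Slc51b, by 0.35, and at Atp8b1, by 0.59. Atp8b1 also had the higher LKO input given above, and the part of input in its difference was not tested. Both lay below at Abcg8, by -0.52, and at Amacr, by -0.39. The libraries overlapped at Cyp27a1, Acox2, Hsd17b4 and Slco1b2. Elsewhere in the named lists, both LKO libraries lay above at C3 (0.28), Fasn (0.31), Itih3 (0.29), Pcx (0.12), Mrpl34 (0.50) and Ndufb6 (0.45), and below at Igfbp1 (-0.69), Hnrnpf (-0.61), Atg5 (-0.25), Nr2f6 (-0.93), Nfe2l2 (-0.42), Srebf2 (-0.36), Rps27l (-0.56) and Fcna (-0.61). Apoa5, Angptl8, Pdk4, Per3, Rbp4, Aox1 and Por were among those with overlapping libraries. Over all shared peaks both LKO libraries lay above at 29.8% and below at 25.2%. Separated libraries therefore do not set a single gene apart.

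**Figure D5:**
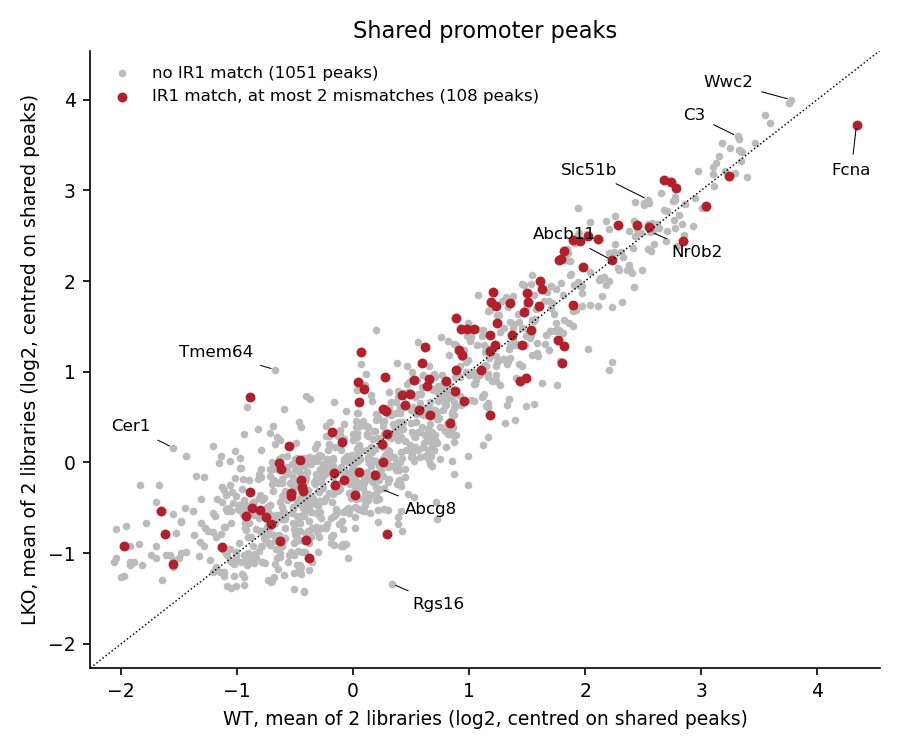
Centred log2 level in LKO (vertical axis, mean of 2 libraries) against WT (horizontal axis, mean of 2 libraries) at the 1159 shared promoter peaks, with the 108 that have an IR1 match in red and the line of equal level dotted. Most peaks lie along the line, the red points sit more often above it, and Rgs16 falls below it.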

How the data were processed

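FXR ChIP-seq of mouse liver gave 6 samples, 2 ChIP libraries and 1 input per genotype, grouped by their labels. The authors aligned reads to mm10 and ran HOMER to call peaks once per genotype, with both ChIP libraries pooled and the input as control. The submitters' processing notes name Bowtie 1.2 and HOMER 4.10. The deposited tables hold 1 peak list per genotype with the 3 libraries of that genotype, normalized together. The headers call these values tag counts, but the deposited values are on a log2 scale, and they were used as deposited. The deposited Peak Score is a signal of the pooled libraries and was not used. The columns of fold change, p-value and adjusted p compare ChIP with input. They are the authors' own comparisons and were not used. No other column of per-sample values was left unused.

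Peaks of the lists were matched by an overlap of at least 1 bp. Strength was the mean of the 2 ChIP values. Estimated tags came from the log2 value and the library totals in the headers. Levels set across the separately normalized tables were centred on each library's median over shared peaks and were not tested. A pair of libraries a genotype allows no permutation p under 0.33, so results are descriptions, and spreads between libraries may be technical. Shares have 95% Wilson intervals, which cover counting over peaks and not variation between mice.

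Sequence came from GRCm38.p6, and promoters and start sites from RefSeq of that build. The distances of the authors matched a RefSeq start within 2 bp for 91.8% of WT and LKO promoter peaks at protein-coding genes. Motifs were searched on both strands within 100 bp of the peak centre, and RefSeq promoters were taken over the same length up to the start. All lists matched the RefSeq gene symbols.

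Named peaks were those of bile acid and FXR feedback genes, the 5 strongest shared ones, the 5 strongest of each list without a partner, the 3 highest and 3 lowest shared ones with separated libraries, the 2 strongest WT peaks of every other gene list, the 6 strongest shared ones with IR1 at no more than 1 mismatch, and the genes with the most promoter peaks. Of the last, only Sqor is described, since 24 LKO genes tied. Some named peaks are not reported here. Members, gene lists and rules were chosen with earlier results of these data known. Work was done in Python 3.11.15 (scipy 1.17.1, pandas 2.3.3, numpy 2.4.6, matplotlib 3.10.9). The overlap and motif code was tested on simulated data.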

Additional observations from a re-analysis of the deposited data

How the results depend on the processing

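Among the planned settings for the shares, levels and LKO minus WT difference, 31 values stayed within the interval or the spread of the reported one and 30 moved beyond it. The values that stayed include those of the island label, which was 0 at every promoter peak and could only stay at 0. Among settings added after seeing the data, 16 values stayed, 13 moved and 1 reversed its sign. With peaks at or above the median strength of the list, promoter peaks made up 13.1% of the WT and 12.8% of the LKO list, the shared part of promoter peaks 54.7% and 89.0%, the IR1 share 8.76% and 11.9% and the CpG-rich share 52.2% and 53.1%. Without high-input peaks, they made up 10.5% of both lists, the shared part 45.6% in WT and 72.6% in LKO, the CpG-rich share 44.4% and 43.6%, and the excess of promoter over other peaks 0.10 in both. A promoter defined as 1000 bp around the TSS gave 16.7% and 16.6% of peaks, and 100 bp gave 4.62% and 4.19%. Promoter peaks within 100 bp of the TSS had IR1 in 4.65% and 6.31% and were CpG-rich in 63.4% and 59.7%. A gap of up to 500 bp raised the shared part to 52.9% and 84.1%, and lists of the same length gave 66.7% and 74.5%. At most 1 mismatch left IR1 in 1.09% and 1.56%. The CpG class by sequence gave 49.3% and 47.2% where the annotation gave 0. Means in place of medians gave an excess of promoter over other peaks of 0.23 in WT and 0.21 in LKO.

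At shared promoter peaks, where the reported median of 0.0057 has no clear sign, the deposited scale gave an LKO minus WT median of -0.32, with -0.30 over all shared peaks. Leaving out 1 library at a time gave -0.013 to 0.041, and the value of 0.041 came without LKO replicate 1. For IR1 promoter peaks, whose median of 0.25 was a result added after seeing the data, the deposited scale reversed the sign to -0.082, since it moves all shared peaks down, means gave 0.20, and leaving out a library gave 0.19 to 0.25. The IR1 minus no IR1 difference of 0.27 lay between 0.18 and 0.29 under every alternative run, and the scaling alternatives cannot change it. A minimum of 10 estimated tags in each replicate, also added, gave a promoter share of 13.3% in WT, a shared part of 72.4% in WT and 60.4% in LKO, and an IR1 share of 8.99% in WT.

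WT replicate 2 was shallow, so WT means at weak peaks carry more counting error, and WT replicate 1 holds most of the pooled WT tags. Leaving out a ChIP library changed the excess of promoter over other peaks to 0.20 to 0.22 in WT and 0.15 to 0.18 in LKO. No paired analysis was possible because the replicate numbers of WT and LKO are only names in the labels and the tables were normalized separately, with no test between genotypes.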

Other observations

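RefSeq protein-coding starts of both strands lay within 1 kb of the centre of 12.2% of WT promoter peaks (10.9 to 13.6) and 10.9% of LKO promoter peaks (9.36 to 12.6). The share was 17.2% in CpG-rich and 7.39% in CpG-poor WT promoter peaks, against 17.6% and 3.66% of the RefSeq promoters of these classes. It was 13.8% (11.9 to 15.9) in WT-only and 10.7% (9.05 to 12.6) in shared WT promoter peaks. The nearest gene was a noncoding RNA gene for 7.16% of WT and 7.33% of LKO promoter peaks, and for 14.4% and 14.5% of other peaks. Peaks covered by masked repeats over more than 50% of their length made up 0.960% of WT promoter peaks and 4.60% of other WT peaks.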
